A study of Mus musculus with 16 samples.

Results

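The transcripts of 10 genes that direct mesenchymal cells toward fat or bone were followed through 16 RNA-seq libraries of C2C12 cells. They were found as the rows of both count tables whose Ensembl identifier carries one of the symbols Pparg, Cebpa, Cebpb, Cebpd, Fabp4, Runx2, Sp7, Alpl, Pdgfra and Zfp423 in GENCODE, so that 10 of 49585 genes were members. This rule uses no measured value, and the symbols were listed with earlier results of these data known. C2C12 cells are myoblasts of a mouse line, which form myotubes in low serum. In the first experiment wild-type cells (WT) were compared with AMPK-KO cells, in which Prkaa1 and Prkaa2, the genes of both catalytic AMPK α subunits, were cut with CRISPR-Cas9. Both were sampled before differentiation, in 10% fetal bovine serum (day 0, d0), and after 8 days in 2% equine serum (d8), with 2 libraries in each of the 4 groups. In the second experiment every cell was AMPK-null and carried a FLAG-BirA tag with EGFP, knocked in at both copies of Tet2 in front of the start codon. Tet2 encodes a dioxygenase that oxidizes 5-methylcytosine in DNA. In TET2-S97E cells the same insertion also replaced serine 97, an AMPK site, by glutamic acid, whereas TET2-WT cells kept the serine. Each of these genotypes had 2 clones with 2 libraries per clone, all at d0. The labels do not say which AMPK-KO line a library came from, nor whether replicates were separate cultures, so p-values measure the spread between these libraries, which may be technical. All groups are a single cell line in culture, without the fibroblasts, fat cells or bone cells of a muscle.

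Fat and bone cells arise from a shared mesenchymal precursor, and myoblasts of this line can be pushed toward either fate by hormones or by bone morphogenetic proteins. In fat formation, the transcription factors C/EBPβ and C/EBPδ come first and switch on PPARγ and C/EBPα, which maintain each other and drive lipid genes such as Fabp4, while Zfp423 commits precursors to the lineage. In bone formation RUNX2 acts above osterix (Sp7), and alkaline phosphatase (Alpl) is an early enzyme of mineralization. PDGFRα marks the fibro-adipogenic progenitors of muscle, a population apart from the myogenic cells. No inducer of fat or bone was given in these experiments.

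Libraries of WT and AMPK-KO cells held 17883417 to 24663079 counts each. Those of the TET2 table held 19801909 to 37790358. The edited genes were read first. Prkaa1 had 3287 and 2925 counts in WT at d0, against 1522 and 1669 in AMPK-KO cells. Prkaa2 had 35 and 33 counts in WT at d0, against 4 and 9 in AMPK-KO cells. Both were lower in every AMPK-KO library than in the WT libraries of that day, and since transcripts of a cut gene can persist, they check the labels only in part. Tet2 had 758 to 1584 counts in the TET2-WT libraries and 156 to 677 in the TET2-S97E libraries. The edit is a codon and not a deletion, so these counts do not check that label. The raw Tet2 counts of the genotypes did not overlap, so the genotypes differed in Tet2 counts as well as in the codon.

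The cells were myogenic in every library. Myogenic markers summed to between 948 and 8004 TPM (counts per base of exon, scaled to the same total in each library), with Des, the muscle intermediate filament, the most abundant, and 8 to 12 of 12 were above the floor of 3 counts. Adipocyte markers summed to 0.0947 to 0.739 TPM, with 0 to 2 of 6 above the floor, and the adipocyte genes Cidec, Lep and Retn among those listed at 0 counts in each library. Osteoblast markers summed to 1.90 to 14.0 TPM, with Phex or Dmp1 the most abundant and the bone matrix gene Ibsp at 0 to 2 counts. Leukocyte markers summed to 0.190 to 1.19, endothelial markers to 0.846 to 8.86 and Schwann cell markers to 0.381 to 2.11 TPM. Summed myogenic markers are given by group, with no test of the sums. At d0 they were 1984 and 2660 TPM in WT against 1228 and 1508 in AMPK-KO cells. At d8 they were 6238 and 8004 TPM in WT, against 2183 and 6266 in AMPK-KO cells, whose replicate 1 thus stood apart from replicate 2.

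The members fell into 2 sets by level. The 6 regulators Cebpb, Cebpa, Runx2, Pparg, Pdgfra and Cebpd had 66 to 3865 counts in all 16 libraries. The other 4, Fabp4, Sp7, Alpl and Zfp423, had at most 30 counts and failed edgeR's filter on low counts in both tables, so they were not tested in the fits reported here. Per length, Cebpb ranged from 26.3 to 377 TPM over the 16 libraries, Cebpa from 12.2 to 128 and Runx2 from 17.8 to 40.4. Pparg ranged from 10.2 to 38.0, Pdgfra from 4.59 to 29.8 and Cebpd from 2.72 to 53.4 TPM. Cebpb was the highest member in all 8 libraries of the WT and AMPK-KO table, Cebpa in 6 and Cebpb in 2 of the 8 TET2 libraries. The ranges of Runx2, Pparg and Pdgfra overlapped, and their order changed between libraries.

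**Figure D1:**
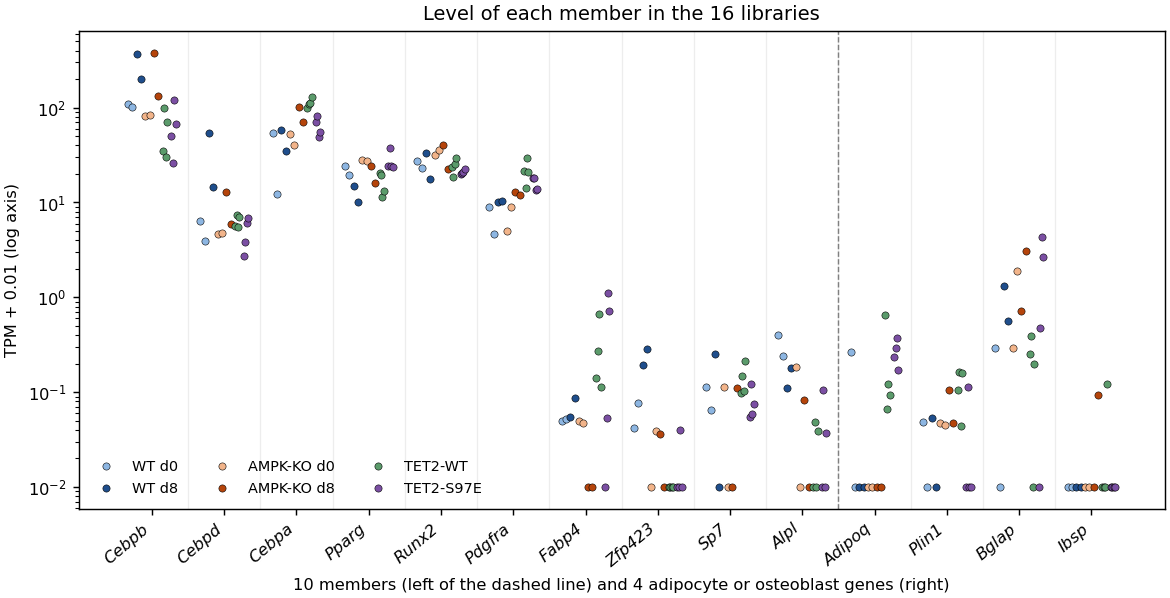
Points are the 16 libraries, colored by group, with TPM + 0.01 on a log axis for the 10 members and, right of the dashed line, for Adipoq and Plin1 (adipocytes) and Bglap and Ibsp (osteoblasts). The first 6 members lie at or above 2.72 TPM in every library, and Fabp4, Zfp423, Sp7 and Alpl never exceed 1.11 TPM.

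The late and lineage-specific members were at or under the floor in most libraries, Fabp4 in the TET2 table being the main exception. Fabp4, the fatty acid carrier of adipocytes, had 0 to 2 counts in the 8 WT and AMPK-KO libraries. In the TET2 table Fabp4 had 4 and 15 counts in TET2-WT clone 1, 19 and 4 in TET2-WT clone 2, 0 and 2 in TET2-S97E clone 1, and 30 and 29 in TET2-S97E clone 2. The pair of libraries of TET2-S97E clone 2, at 1.51 and 0.948 CPM (counts over the TMM-scaled library total), were the highest for Fabp4. Fabp4 failed the filter, so edgeR did not test it here. In fits that kept it the TET2-S97E clones differed (adjusted p = 0.0123 by the DESeq2 Wald test, 4.31e-05 by edgeR without a filter). Those fits, added after seeing the data, called 1354 and 1680 genes between these clones of 2 libraries each, against 858 with the filter. Sp7, the osteoblast factor osterix, had 0 to 4 counts in WT and AMPK-KO libraries and 1 to 6 in TET2 libraries. Alpl, which releases phosphate for mineralization, had 9 and 5 counts in WT at d0, 2 and 4 in WT at d8, and 0 to 4 in the AMPK-KO and the TET2 libraries. Zfp423, a zinc finger protein of preadipocytes, had 5 and 9 counts in WT at d8 and 0 to 2 in every other library, with 0 in 7 of the 8 TET2 libraries. Of these 4, only Alpl in WT at d0, Zfp423 in WT at d8 and Fabp4 in 3 of the 4 TET2 clones exceeded the floor in both libraries of a pair. The floor of 3 counts stood for 0.122 to 0.165 CPM in WT and AMPK-KO libraries and 0.0791 to 0.151 CPM in TET2 libraries, so lower levels were not detectable at this depth.

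The members differ in the sequence before their transcription start. RefSeq (GRCm38.p6) gave 250-base windows for 7 members, 11 in all, and the CpG dinucleotides, the sites of the methylation that TET enzymes oxidize, were counted against a median of 6 per window over 32841 windows. The windows of a pair of transcribed and a pair of near-silent members are shown because both kinds had windows above the median CpG count. Capitals mark each CpG.
Cebpa (chr7:35119043-35119292, plus strand): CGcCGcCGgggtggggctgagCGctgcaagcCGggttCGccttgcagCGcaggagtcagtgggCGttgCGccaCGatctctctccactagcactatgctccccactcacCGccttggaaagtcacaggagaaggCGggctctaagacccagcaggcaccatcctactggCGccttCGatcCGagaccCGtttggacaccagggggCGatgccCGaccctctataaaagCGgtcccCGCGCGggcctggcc
Cebpb (chr2:167688665-167688914, plus strand): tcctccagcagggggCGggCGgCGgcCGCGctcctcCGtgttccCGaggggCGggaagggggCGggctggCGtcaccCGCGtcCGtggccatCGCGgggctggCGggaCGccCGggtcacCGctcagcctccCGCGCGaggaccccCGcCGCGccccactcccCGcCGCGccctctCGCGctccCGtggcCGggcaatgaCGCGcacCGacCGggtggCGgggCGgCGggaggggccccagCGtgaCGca
Alpl, outermost start (chr4:137796385-137796634, minus strand): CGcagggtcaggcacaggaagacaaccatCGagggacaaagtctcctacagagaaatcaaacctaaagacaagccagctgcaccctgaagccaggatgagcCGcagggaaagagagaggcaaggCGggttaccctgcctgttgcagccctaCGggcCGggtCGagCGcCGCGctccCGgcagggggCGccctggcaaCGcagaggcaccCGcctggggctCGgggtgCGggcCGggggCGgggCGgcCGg
Zfp423, outermost start (chr8:87959596-87959845, minus strand): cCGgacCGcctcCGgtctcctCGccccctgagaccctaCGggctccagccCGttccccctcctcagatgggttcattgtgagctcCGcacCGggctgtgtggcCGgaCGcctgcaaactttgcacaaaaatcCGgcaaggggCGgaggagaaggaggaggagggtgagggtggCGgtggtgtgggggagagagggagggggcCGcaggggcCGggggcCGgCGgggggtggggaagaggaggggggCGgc
The Cebpa window held 22 CpG and the Cebpb window 41, more than 85.2 and 98.9% of all windows. The outermost windows of the near-silent genes held 20 CpG for Alpl and 18 for Zfp423, more than 82 and 78.3% of all windows, while their inner windows held 4 and 6, more than 37.8 and 49.6%. The window before the RefSeq start of Runx2, of which 170 bases are exon in GENCODE, held 0 CpG, and that of Pdgfra held 4. Both genes had transcripts in every library, but counts per gene do not show which start was used. For Pdgfra the bases after the RefSeq start were not found in a GENCODE transcript of the gene. The 3 windows of Pparg, whose counts do not separate its transcripts, held 38, 12 and 2 CpG from the outermost start inward, of which 193, 57 and 0 bases are exon in GENCODE. The C/EBP palindrome TTGCGCAA, searched on both strands, was in none of the 11 windows and in 0.164% of all windows, and TATAAA, also searched on both strands, was in 3 of the 11 windows (Cebpa, the middle one of Pparg and the inner one of Alpl, the latter pair on the other strand) and in 12.4% of all windows. Neither count says whether a factor binds there. DNA methylation was not analysed here.

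The first comparison asked how AMPK-KO cells differed from WT cells in the members at each stage. The AMPK-KO lines were grown from clones picked after puromycin selection, so clonal origin and the loss of AMPK cannot be told apart. None of the 6 tested members differed between AMPK-KO and WT cells at an adjusted p under 0.05 (called), at d0 or at d8. Of the 14329 genes tested, 3.52% (505) were called at d0 and 5.35% (766) at d8 with edgeR's quasi-likelihood test. The median log2 fold change of the 6 members was 0.24 at d0 and 0.34 at d8, against −0.00 and 0.04 over all genes tested. In these bulk libraries fewer cells of a kind and less RNA per cell cannot be told apart. The groups of 2 libraries did not overlap for 3 members at d0 and 4 at d8, beside 49.4 and 57.9% of all genes tested.

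Cebpb (ENSMUSG00000056501.3, chr2:167688915-167690418, plus strand) has a single exon and encodes C/EBPβ. At d0 it had 45.4 and 44.2 CPM in WT against 36.6 and 35.6 in AMPK-KO cells, in the order of the replicate numbers. At d8 it had 151 and 82.1 CPM in WT against 158 and 56.4 in AMPK-KO cells. The d0 libraries were close within a genotype, whereas at d8 the higher library held 1.84 times the lower in WT and 2.79 times in AMPK-KO cells, and the genotypes overlapped. As a log2 fold change, AMPK-KO against WT stood at −0.31 at d0 (SE 0.469, adjusted p = 0.764 by edgeR's quasi-likelihood test), while at d8 it was −0.12 (SE 0.464, adjusted p = 0.906). Cebpb shares 312 exon bases with Tmem189 on the other strand, which had 383 to 1814 counts in this table, and the use of strand in counting is not stated in the sources used here.

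Cebpd (ENSMUSG00000071637.5, chr16:15887286-15891031, plus strand) encodes C/EBPδ, the partner of C/EBPβ at the start of fat formation. At d0 it had 6.46 and 4.23 CPM in WT against 5.13 and 5.10 in AMPK-KO cells. At d8 it had 54.1 and 14.8 CPM in WT against 13.3 and 6.32 in AMPK-KO cells. Both AMPK-KO libraries at d8 lay below both WT libraries, although the 2 WT libraries differed by 3.66-fold. At d8 Cebpd had a log2 fold change of −1.81 (SE 0.624, adjusted p = 0.146 by edgeR's quasi-likelihood test), and at d0 it was −0.07 (SE 0.627, adjusted p = 0.974). The DESeq2 Wald test called Cebpd at d8 with an adjusted p of 0.0201, whereas without replicate 1 of WT at d8 edgeR's value was −0.57 (adjusted p = 0.661). Cebpd shares 562 exon bases with Spidr on the other strand, which had 217 to 579 counts in this table.

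Pparg (ENSMUSG00000000440.12, chr6:115360951-115490399, plus strand), the nuclear receptor of fat cell formation, had 19.5 and 16.6 CPM in WT against 24.5 and 22.9 in AMPK-KO cells at d0. At d8 it had 11.8 and 8.16 CPM in WT against 20.0 and 13.3 in AMPK-KO cells. The AMPK-KO libraries were the higher pair on both days, without overlap. The log2 fold change was 0.39 at d0 (SE 0.279, adjusted p = 0.478 by edgeR's quasi-likelihood test), while at d8 it was 0.74 (SE 0.282, adjusted p = 0.179). Mean levels were lowest in WT d8, then AMPK-KO d8, WT d0 and AMPK-KO d0, and the neighbors AMPK-KO d8 and WT d0 overlapped.

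Cebpa (ENSMUSG00000034957.10, chr7:35119293-35121928, plus strand) encodes C/EBPα, which acts with PPARγ. At d0 it had 38.7 and 9.27 CPM in WT against 41.1 and 30.4 in AMPK-KO cells. At d8 it had 41.9 and 25.3 CPM in WT against 73.9 and 53.1 in AMPK-KO cells. The 2 WT libraries at d0 differed by 4.18-fold, the widest replicate gap of the 6 members, and the genotypes overlapped at d0 but not at d8. Fitted values for Cebpa were a log2 fold change of 0.57 at d0 (SE 0.597, adjusted p = 0.643 by edgeR's quasi-likelihood test), while at d8 it was 0.92 (SE 0.596, adjusted p = 0.405). Without replicate 1 of WT at d0, that d0 value was 1.94 (adjusted p = 0.0900), and without replicate 2 it was −0.11.

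Runx2 (ENSMUSG00000039153.16, chr17:44495987-44814797, minus strand), the master factor of osteoblasts, was transcribed in every library. At d0 it had 65.8 and 59.6 CPM in WT against 83.0 and 88.7 in AMPK-KO cells. At d8 it had 79.0 and 42.8 CPM in WT against 99.2 and 56.0 in AMPK-KO cells. The genotypes were apart at d0 and overlapped at d8. Runx2 shares 519 exon bases with Runx2os1 on the other strand, which had 4 to 24 counts in these libraries. For Runx2 this gave a log2 fold change of 0.45 at d0 (SE 0.344, adjusted p = 0.510 by edgeR's quasi-likelihood test), while at d8 it was 0.35 (SE 0.343, adjusted p = 0.588).

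Pdgfra (ENSMUSG00000029231.15, chr5:75152292-75198215, plus strand), the receptor for PDGF on fibro-adipogenic progenitors, had 24.4 and 13.3 CPM in WT against 14.9 and 25.4 in AMPK-KO cells at d0. At d8 it had 27.2 and 28.2 CPM in WT against 35.8 and 33.7 in AMPK-KO cells. The d0 groups overlapped, and the d8 groups were tight and apart. The log2 fold change was 0.10 at d0 (SE 0.345, adjusted p = 0.917 by edgeR's quasi-likelihood test), while at d8 it was 0.33 (SE 0.343, adjusted p = 0.615).

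**Figure D2:**
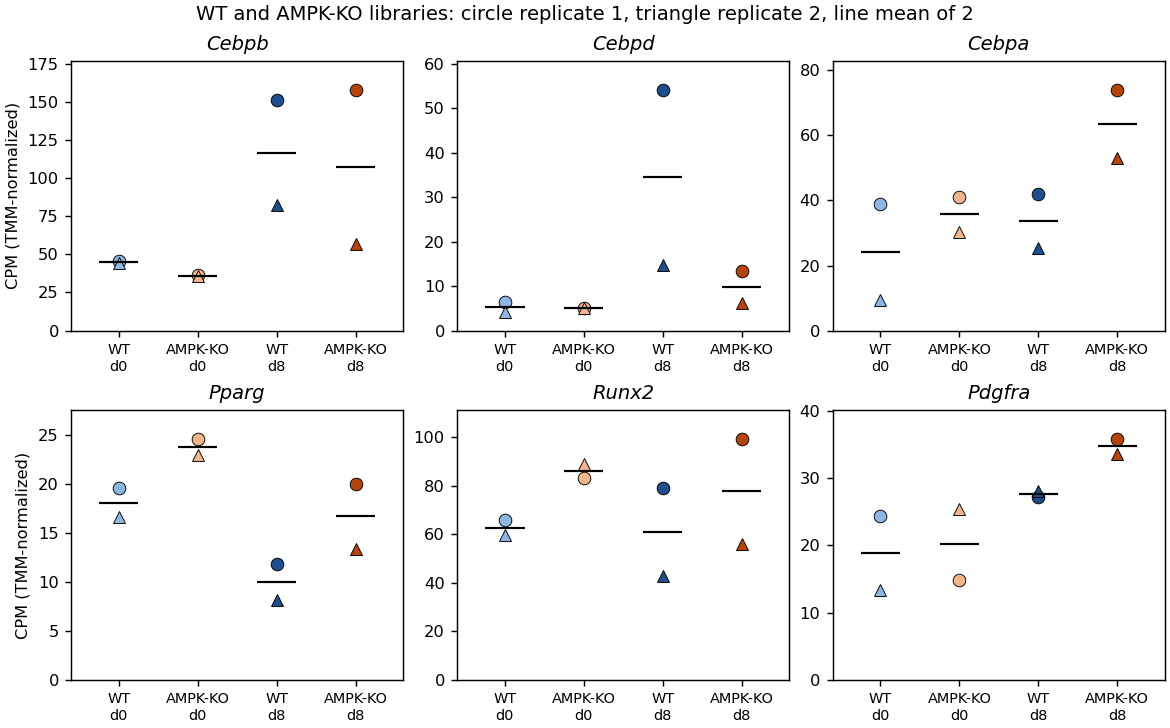
CPM of the 6 tested members in the 8 WT and AMPK-KO libraries, with circles for replicate 1, triangles for replicate 2 and lines for the mean of the 2. Cebpb and Cebpd sit higher at d8 than at d0 in both genotypes, and only Cebpd in WT was called. Replicate 1 lies above replicate 2 for all 6 members in WT d0, 4 in AMPK-KO d0, 5 in WT d8 and all 6 in AMPK-KO d8.

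The second comparison asked what changed over 8 days of low serum within a genotype. In WT cells Cebpd rose by 2.68 on the log2 scale, 6.42-fold (SE 0.649, adjusted p = 0.0408 by edgeR's quasi-likelihood test), from the 2 d0 libraries at 6.46 and 4.23 CPM to 54.1 and 14.8 CPM. It was the only called member of 6, with 12.4% of the 14329 genes called (1771) and 5.78% called higher. In AMPK-KO cells no member was called, with 9.76% of genes called (1398). The call of Cebpd was lost without any 1 of the 4 WT or the 2 d0 AMPK-KO libraries, 6 of 8 cases, with adjusted p from 0.0725 to 0.210, and without replicate 1 of WT at d8 the log2 fold change was 1.44.

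For the other members the changes over time had the same sign in both genotypes, without a call in this fit. That sign turned when 1 library was left out for Cebpa in WT (−0.19 to 1.84) and for Runx2 in WT (−0.58 to 0.31) and AMPK-KO cells (−0.61 to 0.18). The d8 libraries of Cebpb lay above the d0 libraries in both genotypes. On the log2 scale Cebpb differed by 1.38 in WT (SE 0.474, adjusted p = 0.100 by edgeR's quasi-likelihood test) and 1.57 in AMPK-KO cells (SE 0.477, adjusted p = 0.0837), and the DESeq2 Wald test called both, with adjusted p of 0.0147 and 0.0052. For Pparg it was −0.86 in WT (SE 0.283, adjusted p = 0.0898) and −0.51 in AMPK-KO cells (SE 0.279, adjusted p = 0.275), with the d8 libraries below the d0 libraries in each genotype. With a replicate block added to the fit, Pparg was called in WT (−0.87, SE 0.203, adjusted p = 0.0378) and not in AMPK-KO cells (−0.54, adjusted p = 0.123). Pdgfra had 0.55 in WT (SE 0.345, adjusted p = 0.321) and 0.79 in AMPK-KO cells (SE 0.345, adjusted p = 0.187), and Cebpd had 0.94 in AMPK-KO cells (SE 0.624, adjusted p = 0.363). For Cebpa it was 0.48 in WT (SE 0.597, adjusted p = 0.628) and 0.83 in AMPK-KO cells (SE 0.595, adjusted p = 0.402). Runx2 differed by −0.04 in WT (SE 0.343) and −0.15 in AMPK-KO cells (SE 0.342), the smallest shifts of the 6. The groups did not overlap for 4 members in WT and 5 in AMPK-KO cells, beside 61.5 and 59.1% of all genes tested.

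Whether the change over time differed between genotypes was tested directly. For Cebpd the change in AMPK-KO cells minus that in WT was −1.74 (SE 0.878, adjusted p = 1.00 by edgeR's quasi-likelihood test). Without replicate 1 of WT at d8 it was −0.48. The other 5 members had differences from −0.10 to 0.35. edgeR called 0 of 14329 genes in this test (0%), with 729 (5.09%) at an unadjusted p under 0.05, and DESeq2 called 57. With 2 libraries per group, a p that misses the threshold does not show that the genotypes changed alike. Myogenic markers moved with these comparisons. Of the 11 tested, 4 were lower in AMPK-KO cells at d0 (Myog, Mymk, Pax7 and Myod1), 1 at d8 (Pax7), and 5 in WT and 7 in AMPK-KO cells were higher at d8 than at d0. Of all genes tested, 2.83% at d0 and 3.98% at d8 were called lower in AMPK-KO cells, and over time 12.4% in WT and 9.76% in AMPK-KO cells were called in either direction. The part of the myogenic markers in the values of the 6 members was not tested.

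**Figure D3:**
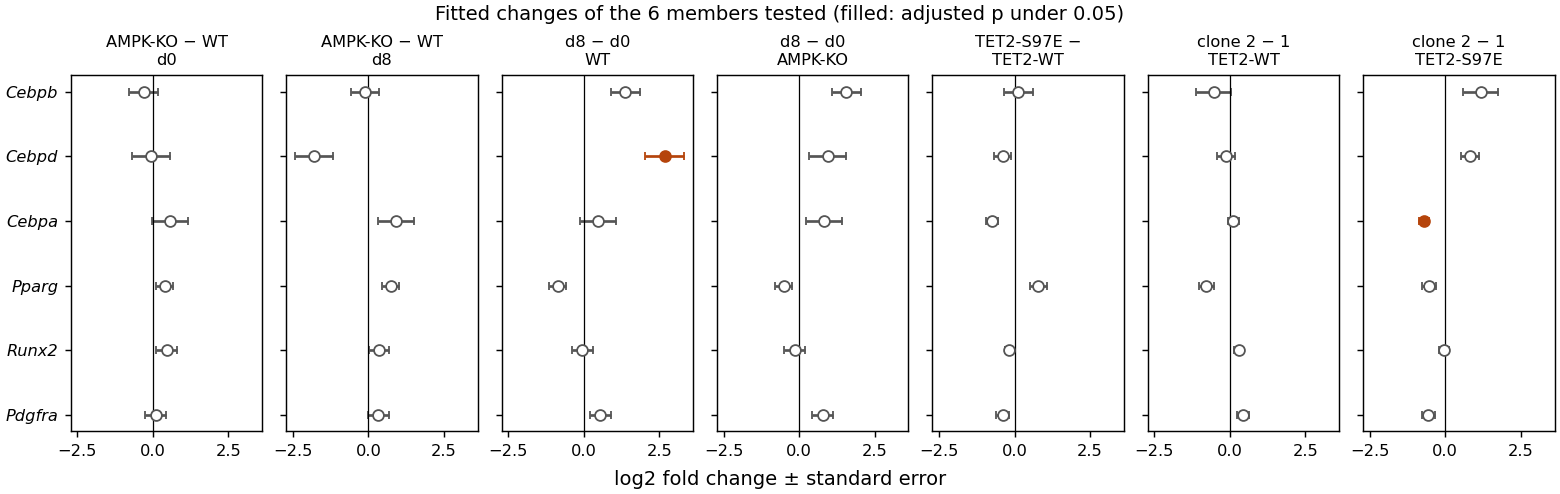
Fitted log2 fold changes with standard errors of the 6 tested members in 7 comparisons, filled where the adjusted p by edgeR's quasi-likelihood test was under 0.05. Only Cebpd in WT over time (2.68) and Cebpa between the clones of TET2-S97E (−0.71) are filled.

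In the TET2 knock-in cells the question was whether a TET2 that mimics phosphorylation changed the members where AMPK is absent. Raw Tet2 counts were also lower in TET2-S97E, and their part in these values was not tested. No member was called, with 6.98% of the 13433 genes tested called (938). The libraries of the genotypes did not overlap for Cebpa, which was lower in TET2-S97E, and for Pparg, which was higher, beside 15.3% of all genes tested without overlap. The median log2 fold change of the 6 members was −0.29, against 0.01 over all genes. Libraries of a clone are not separate clones, and 2 clones against 2 cannot give a two-sided exact p under 0.33. With counts summed per clone edgeR called 0 genes in this comparison, so each TET2-S97E call given here, those of the related lists included, is lost in that fit.

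Cebpa had 79.5 and 96.0 CPM in TET2-WT clone 1 and 86.0 and 104 in TET2-WT clone 2. It had 61.1 and 72.9 CPM in TET2-S97E clone 1 and 38.9 and 43.1 in TET2-S97E clone 2. All 4 TET2-S97E libraries lay below all 4 TET2-WT libraries, at 54.0 ± 15.8 against 91.3 ± 10.7 CPM (SD, n = 4 each). The log2 fold change was −0.76 (SE 0.203, adjusted p = 0.0555 by edgeR's quasi-likelihood test). The value sat near the threshold. With upper-quartile factors the adjusted p was 0.0413 and with the DESeq2 Wald test 0.0121, whereas with counts summed per clone it was 0.442 and with clone as a random effect in limma-voom 0.116. Without TET2-S97E clone 1 the log2 fold change was −1.17 (adjusted p = 0.00902), and without TET2-S97E clone 2 it was −0.45 (adjusted p = 0.159).

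Pparg had 18.6 and 19.3 CPM in TET2-WT clone 1, and 9.94 and 12.1 in TET2-WT clone 2. It had 23.3 and 37.9 CPM in TET2-S97E clone 1, and 21.8 and 20.7 in TET2-S97E clone 2. The TET2-S97E libraries were the higher 4, and the gap between the genotypes was narrow, from 19.3 to 20.7 CPM. The log2 fold change was 0.79 (SE 0.271, adjusted p = 0.115 by edgeR's quasi-likelihood test), and with counts summed per clone the adjusted p was 0.548. The DESeq2 Wald test gave an adjusted p of 0.0491. Without TET2-WT clone 1 the log2 fold change was 1.23 and without TET2-WT clone 2 it was 0.45, and without TET2-S97E clone 1 it was 0.49.

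The early C/EBP members did not separate the genotypes. Cebpb had 16.1 and 50.3 CPM in TET2-WT clone 1, 13.3 and 32.5 in TET2-WT clone 2, 24.5 and 13.4 in TET2-S97E clone 1, and 54.7 and 30.3 in TET2-S97E clone 2. Libraries of 1 clone differed by 1.81- to 3.12-fold, and the log2 fold change was 0.13 (SE 0.490, adjusted p = 0.915 by edgeR's quasi-likelihood test). Cebpd had 6.37 and 9.25 CPM in TET2-WT clone 1, 6.09 and 8.12 in TET2-WT clone 2, 3.33 and 4.85 in TET2-S97E clone 1, and 6.82 and 7.68 in TET2-S97E clone 2. Only TET2-S97E clone 1 lay below the others, and the log2 fold change was −0.40 (SE 0.286, adjusted p = 0.451).

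Runx2 varied little in these cells. It had 64.2 and 55.4 CPM in TET2-WT clone 1, 66.2 and 79.6 in TET2-WT clone 2, 57.8 and 61.0 in TET2-S97E clone 1, and 55.6 and 59.1 in TET2-S97E clone 2. The groups overlapped, with a log2 fold change of −0.18 (SE 0.126, adjusted p = 0.422 by edgeR's quasi-likelihood test). Pdgfra had 65.3 and 47.5 CPM in TET2-WT clone 1, 87.8 and 65.2 in TET2-WT clone 2, 59.8 and 61.1 in TET2-S97E clone 1, and 40.7 and 41.5 in TET2-S97E clone 2. TET2-S97E clone 2 was the lowest pair, the groups overlapped, and the log2 fold change was −0.39 (SE 0.211, adjusted p = 0.308).

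**Figure D4:**
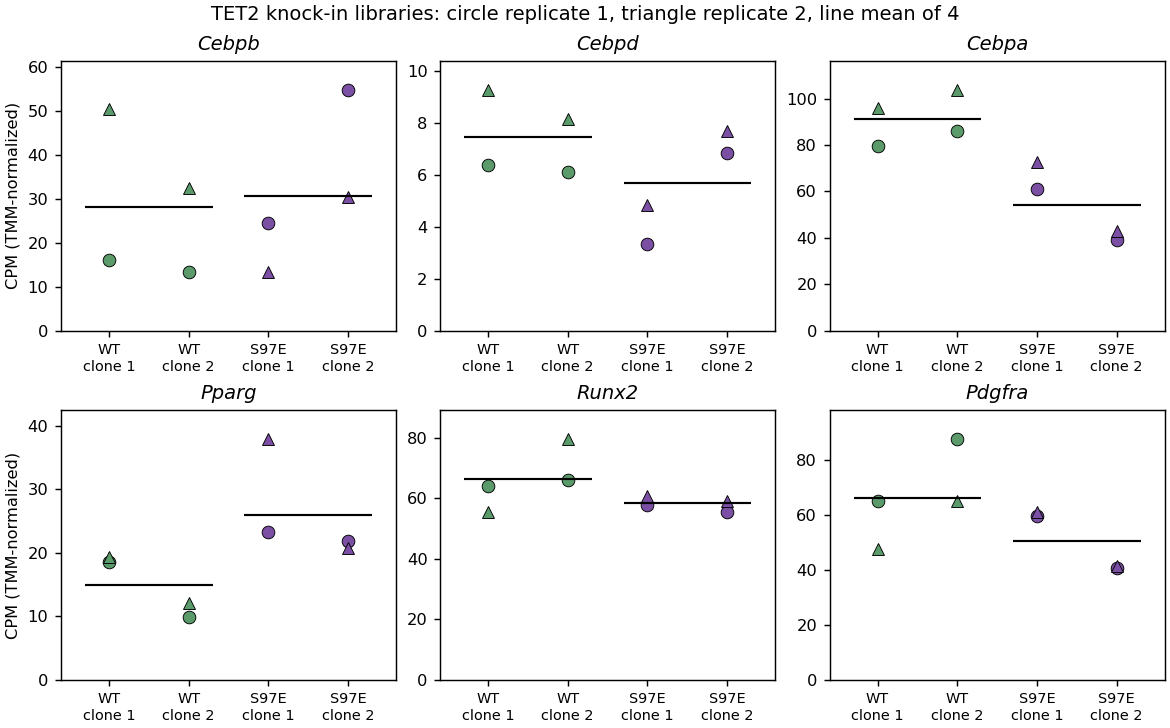
CPM of the 6 tested members in the 8 TET2 knock-in libraries by clone, with circles for replicate 1, triangles for replicate 2 and lines for the mean of the 4 libraries of a genotype. Cebpa lies lower (38.9 to 72.9 against 79.5 to 104 CPM) and Pparg higher (20.7 to 37.9 against 9.94 to 19.3 CPM) in TET2-S97E, and Cebpb varies most within a clone.

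Clones of 1 genotype differed as well. In TET2-S97E, Cebpa was lower in clone 2 than in clone 1 by a log2 fold change of −0.71, or 1.63-fold (SE 0.176, adjusted p = 0.0476 by edgeR's quasi-likelihood test), the only member called, with 6.39% of genes called (858). This call was lost without any 1 of the 4 TET2-S97E libraries or the 2 of TET2-WT clone 1, 6 of 8 cases, with adjusted p from 0.0809 to 0.222, and with upper-quartile factors, at 0.0523. The clones of TET2-S97E did not overlap for 5 of the 6 members, beside 48.2% of all genes, with Cebpb (1.17, SE 0.583) and Cebpd (0.82, SE 0.311) higher in clone 2 and Pparg (−0.53, SE 0.238) and Pdgfra (−0.56, SE 0.201) lower, none of them called. In TET2-WT no member was called between clones, with 0.901% of genes called (121), and Pparg had the largest value, −0.78 (SE 0.242, adjusted p = 0.143). Myogenic markers differed between the same clones. Myod1, the myogenic determination factor, was lower in TET2-S97E clone 2 than in clone 1 by a log2 fold change of −2.36 (SE 0.230, adjusted p = 0.00126). In TET2-WT, Myod1 was called higher in clone 2, the only one of 11 tested myogenic markers. The median of these markers in clone 2 against clone 1 was −1.42 for TET2-S97E and 2.11 for TET2-WT. Against TET2-WT, TET2-S97E had 7 of 11 tested myogenic markers higher, Myog and Pax7 among them, beside 6.98% of all genes called in either direction, with overlapping summed levels of 1150 to 4396 against 948 to 1210 TPM. Their part in the values of Cebpa and Pparg was not tested.

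Between the tables the libraries were normalized separately and no test was made. Side by side, TET2-WT cells and AMPK-KO cells at d0, both AMPK-null myoblasts, had 91.3 ± 10.7 (SD, n = 4) and 35.7 ± 7.56 (SD, n = 2) CPM for Cebpa. They had 66.5 ± 16.5 and 20.1 ± 7.44 CPM for Pdgfra, and 15.0 ± 4.66 and 23.7 ± 1.16 for Pparg. For Runx2 they had 66.4 ± 10.0 and 85.8 ± 4.05 CPM. Cebpd ranged over 6.09 to 9.25 and 5.10 to 5.13 CPM, and Cebpb over 13.3 to 50.3 and 35.6 to 36.6. The means of Cebpa, Pdgfra and Cebpd were thus the higher in the TET2 table and those of Pparg, Runx2 and Cebpb the lower, Cebpb with overlap, and the experiment, the knock-in and the clones cannot be told apart.

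A set of 6 lists with 118 related genes placed the members among their partners. Among the relatives and cofactors of PPARγ and the C/EBP factors (12 genes, 9 tested), none was called between AMPK-KO and WT cells on either day, beside 3.52% of all genes at d0 and 5.35% at d8. Their median at d0 was 0.14 and at d8 0.12 on the log2 scale, against −0.00 and 0.04 over all genes. Over time Med1, a Mediator subunit that binds nuclear receptors, was lower at d8 in AMPK-KO cells (−0.66, SE 0.149, adjusted p = 0.0391 by edgeR's quasi-likelihood test). In TET2-S97E, Ddit3, which encodes the C/EBP relative CHOP, was lower than in TET2-WT, at 44.2 ± 9.36 against 71.4 ± 10.0 CPM (SD, n = 4 libraries of 2 clones each), a log2 fold change of −0.69 (SE 0.176, adjusted p = 0.0458).

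Of the inducers and repressors of fat formation (21 genes, 18 tested), 2 at d0 and 3 at d8 were lower in AMPK-KO cells, and none was higher, beside 2.83 and 3.98% of all genes called lower. Zfp521, a repressor of Ebf1 and Zfp423 in fat precursors, had 33 and 48 counts in WT at d0 and 40 and 72 at d8, and 0 in all 4 AMPK-KO and all 8 TET2 libraries. In AMPK-KO cells it was at least 14.1-fold lower at d0 and at least 20.8-fold lower at d8, with the absent group set to 3 counts per library (adjusted p = 0.0233 and 0.0167 by edgeR's quasi-likelihood test). Klf4, an early inducer upstream of Cebpb, was lower in AMPK-KO cells at d0 (−2.66, SE 0.418, adjusted p = 0.0216) and d8 (−1.88, SE 0.405, adjusted p = 0.0448), where it had 2028 and 662 counts against 3618 and 4790 in WT. Klf2, which represses Pparg, was lower at d8 (−3.07, SE 0.469, adjusted p = 0.0167) and missed the threshold at d0 (−2.14, SE 0.448, adjusted p = 0.0515). The members that changed thus held an inducer and repressors alike, and the median of the list was −0.23 at d0 and −0.31 at d8, unchanged with Zfp521 at its bound. Klf5, an inducer of Pparg, rose over time in WT (1.28, SE 0.299, adjusted p = 0.0368). In TET2-S97E 1 of 15 tested was called, beside 6.98% of all genes, namely Nr2f2, which encodes the repressor COUP-TFII (−0.43, SE 0.111, adjusted p = 0.0499).

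Lipid genes and PPARγ targets (23 genes, 14 tested) moved in both directions. In AMPK-KO cells Dgat2, which makes triglycerides, was lower at d0 (−3.33, SE 0.381, adjusted p = 0.00969 by edgeR's quasi-likelihood test) and d8 (−2.66, SE 0.373, adjusted p = 0.0137). Acsl1, which activates fatty acids, was lower at d0 (−1.91, SE 0.218) and d8 (−1.37, SE 0.212, adjusted p = 0.0174). Plin2, the lipid droplet coat of many cell types, was higher at d8 (1.22, SE 0.219, adjusted p = 0.0270). Over time Cd36, a fatty acid transporter that muscle cells also use, had 1 and 2 counts in WT at d0 and 390 and 365 at d8, and in AMPK-KO cells 0 and 0, then 11 and 127. In AMPK-KO cells Acsl1 (1.21, SE 0.216, adjusted p = 0.0246) and Fabp3, a fatty acid carrier of muscle (4.31, SE 1.03, adjusted p = 0.0452), rose over time. Fabp5 fell over time in WT (−4.04, SE 0.520, adjusted p = 0.0143) and AMPK-KO cells (−3.06, SE 0.492, adjusted p = 0.0222). In TET2-S97E, 1 of 12 tested was higher and 2 were lower, beside 6.98% of all genes called in either direction. Angptl4, a secreted inhibitor of lipoprotein lipase and a PPAR target, was lower in TET2-S97E, at 43.6 to 69.1 against 153 to 227 CPM (−1.73, SE 0.183, adjusted p = 0.00492). Lipe, the hormone-sensitive lipase, was lower (−0.97, SE 0.210, adjusted p = 0.0270). Lpl, the lipoprotein lipase, was higher (4.37, SE 0.975, adjusted p = 0.0293), with 19.8 and 23.0 CPM in clone 1 and 291 and 447 in clone 2, against 7.09 to 10.7 in TET2-WT. Clone 2, which held most of the Lpl transcripts, also had the highest Fabp4 counts. Between the TET2-S97E clones, 1 of the 12 tested was called higher in clone 2 (Lpl) and 1 lower, beside 6.39% of all genes called in either direction. The lower one was Plin2 (−0.79, SE 0.175, adjusted p = 0.0310 by edgeR's quasi-likelihood test).

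Of the osteochondral transcription factors and partners (21 genes, 17 tested), Lef1, an effector of Wnt signaling, was higher in AMPK-KO cells at d0 (1.92, SE 0.324, adjusted p = 0.0271 by edgeR's quasi-likelihood test) and d8 (1.58, SE 0.320, adjusted p = 0.0377). Sox5, a cartilage factor, had 30 and 24 counts in WT at d0 and none in AMPK-KO cells, at least 9.24-fold lower (adjusted p = 0.0365), and 12 and 36 against 1 and 0 at d8 (adjusted p = 0.0401). Over time Wwtr1 (TAZ, a coactivator of RUNX2) rose in WT (0.80, SE 0.184, adjusted p = 0.0354) and AMPK-KO cells (0.88, SE 0.184, adjusted p = 0.0334). Dlx3, a homeobox factor of bone and skin, fell in WT (−2.06, SE 0.399, adjusted p = 0.0231) and AMPK-KO cells (−2.17, SE 0.397, adjusted p = 0.0256). In TET2-S97E, Lef1 (−0.89, SE 0.182, adjusted p = 0.0221) and Twist2, a repressor of RUNX2 function (−1.05, SE 0.253, adjusted p = 0.0391), were lower than in TET2-WT. The list's median ran from −0.24 to 0.12 over these 5 comparisons.

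Of the bone matrix and mineralization genes (23 genes, 18 tested), none was called between genotypes at d0 and 2 were lower in AMPK-KO cells at d8, beside 2.83 and 3.98% of all genes called lower. Col1a1, the main collagen of bone and of fibroblasts, had 8152 and 30872 counts in WT against 865 and 1544 in AMPK-KO cells (−4.11, SE 0.691, adjusted p = 0.0223 by edgeR's quasi-likelihood test). Dmp1, an osteocyte matrix protein, had 59 and 14 against 2 and 0 counts (adjusted p = 0.0463). Postn, a matrix protein of bone surface and connective tissue, rose over time in WT (4.83, SE 1.19, adjusted p = 0.0425). Enpp1, which makes the mineralization inhibitor pyrophosphate, was lower in TET2-S97E than in TET2-WT, at 148 ± 44.6 against 404 ± 144 CPM (SD, n = 4 each; −1.44, SE 0.295, adjusted p = 0.0222). Between the TET2-WT clones 2 of 16 tested were called higher in clone 2, beside 0.901% of all genes called in either direction. They were Postn (3.70, SE 0.529) and Col1a1 (2.92, SE 0.498). Between the TET2-S97E clones 2 of 16, Omd and Tnfrsf11b, were higher in clone 2, beside 3.35% of all genes called higher. These 4 were named after their values were seen.

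The PDGF genes and progenitor markers around Pdgfra (18 genes, 15 tested) had the lowest medians of the 6 lists in AMPK-KO against WT on the log2 scale, at d0 −1.26 and at d8 −1.81, while Pdgfra itself had 0.10 and 0.33. In TET2-S97E against TET2-WT the median was 0.04. Cd34, a surface marker of progenitors and of quiescent muscle stem cells, was lower in AMPK-KO cells at d0 (−4.28, SE 0.501, adjusted p = 0.00996 by edgeR's quasi-likelihood test) and d8 (−3.79, SE 0.493, adjusted p = 0.0111). Pdgfd, a ligand of PDGFRβ, was lower at d0 (−2.25, SE 0.286) and d8 (−2.06, SE 0.282). Ly6a (Sca-1) was lower at d0 (−6.58, SE 1.33, adjusted p = 0.0470), with 6413 and 3823 against 75 and 32 counts, and Osr1, a factor of progenitors, at d8 (−3.69, SE 0.647, adjusted p = 0.0251). Lum, a matrix proteoglycan named after its value was seen, was the fourth gene called lower at d8, after 3 at d0, beside 2.83% of all genes called lower at d0 and 3.98% at d8. Dcn, a matrix proteoglycan, rose over time in WT (5.48, SE 0.618, adjusted p = 0.0143) and AMPK-KO cells (4.93, SE 0.606, adjusted p = 0.0193). In TET2-S97E none of 14 tested was called against TET2-WT, beside 6.98% of all genes. Between the TET2-S97E clones 5 of the 14, namely Nt5e, Dcn, Lum, Osr2 and Pi16, named after their values were seen, were higher in clone 2, beside 3.35% of all genes called higher. Between the TET2-WT clones Lum was also higher in clone 2 (2.89, adjusted p = 0.0478) and Ly6a was lower (−3.90, adjusted p = 0.00696).

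**Figure D5:**
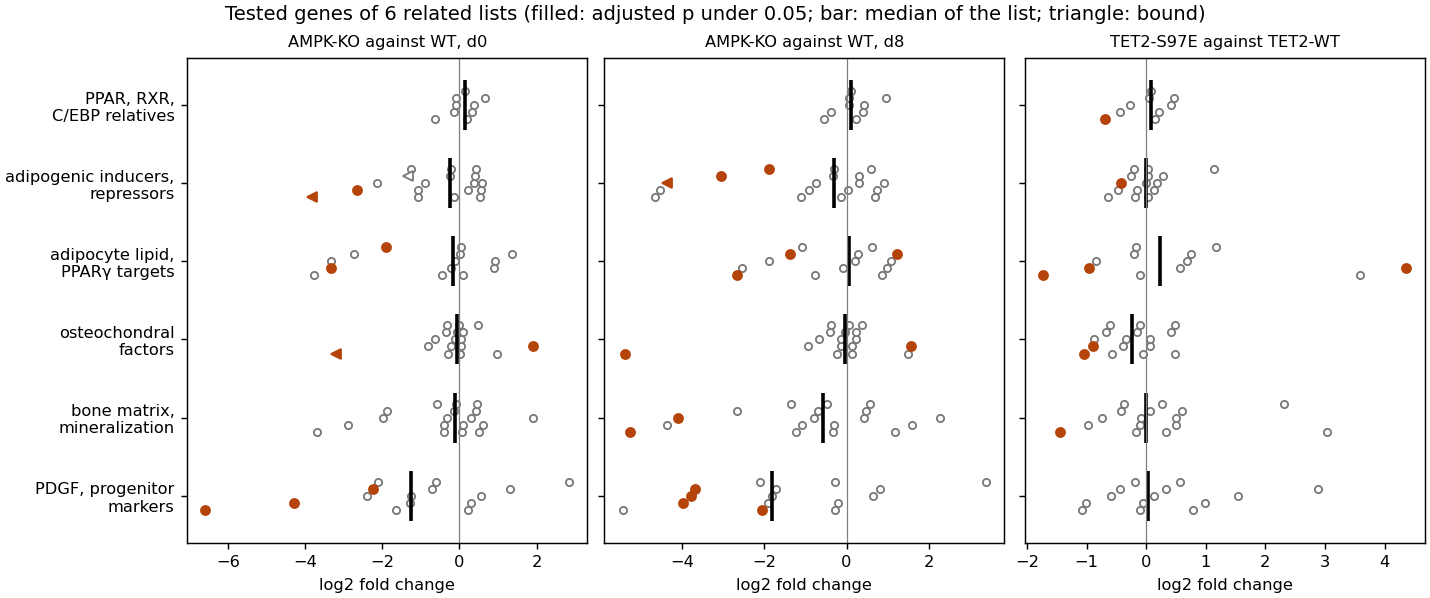
Log2 fold changes of the tested genes of 6 related lists in 3 comparisons, filled where the adjusted p by edgeR's quasi-likelihood test was under 0.05, with bars at the list medians and triangles at the bound of genes with 0 counts in a whole group. The PDGF and progenitor list has medians of −1.26 and −1.81 in AMPK-KO against WT, and the relatives of PPARγ and C/EBP lie near 0.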

How the data were processed

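Total RNA from C2C12 cells was made into ribosomal RNA-depleted libraries and read as paired ends. Per the study's methods and the submitters' processing notes, the authors demultiplexed with bcl2fastq 2.17, trimmed with Trim Galore 0.4.5, aligned with STAR 2.5.3a to GRCm38 and counted with featureCounts 1.5.3. The deposited values are raw counts per gene in 2 tables, 1 for each experiment, and whether counting used the strand is not given in the sources used here. Gene names and exon lengths came from GENCODE M21, which held 49326 of the 49585 identifiers.

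Each table was normalized on its own (TMM) and tested with edgeR 4.0.16 in R 4.3.3 by the quasi-likelihood test, with genes kept by filterByExpr and Benjamini-Hochberg adjustment over all genes tested. WT and AMPK-KO libraries were fitted as 4 group means with 4 residual degrees of freedom, the TET2 libraries as 2 group means with 6 and, for the clones, as 4 clone means with 4. Calls were genes with an adjusted p under 0.05. Alternatives were DESeq2 1.42.0, limma 3.58.1 voom with clone as a random effect, other scaling factors and filters, counts summed per clone, a replicate block and fits without each library. Those for the clone comparisons were added after seeing the data. The steps were tested on simulated data. No per-sample column lacked a sample, and replicates differed by more than sampling noise (chi-square per degree of freedom 29.4 to 107).

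The named genes were the 10 members, up to 3 genes of lowest adjusted p from each related list in each comparison of genotypes or days, the edited genes and the cell type markers. The members and lists were chosen with earlier results of these data known.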

Additional observations from a re-analysis of the deposited data

Results flagged for a closer look

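In the groups of 4 libraries, 20 pairs of a member and a group were searched for a library far from the others by Dixon's ratio, which chance passes in about 1 of 20 groups. Pparg was at 37.9 CPM (1164 counts) in TET2-S97E clone 1 replicate 2, while the other 3 TET2-S97E libraries lay between 20.7 and 23.3 CPM. Zfp423 was at 0.0505 CPM in TET2-S97E clone 2 replicate 1, which is a single read pair, with 0 counts in the other 3 libraries.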

How the results depend on the processing

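Of the fitted log2 fold changes of the 6 tested members under other settings, 312 kept their direction and their side of the threshold, 18 gained a call, 2 lost one and 4 reversed. With libraries left out one at a time these numbers were 340, 5, 12 and 27. With all genes kept, calls numbered 2026 (AMPK-KO against WT, d0), 2503 (d8), 3293 (over time, WT), 3039 (over time, AMPK-KO), 449 (difference of changes), 1627 (clones, TET2-WT) and 1680 (clones, TET2-S97E), and members called 2 at d8, 2 over time in each genotype, 1 in the difference, 1 in TET2-S97E against TET2-WT, 1 between TET2-WT clones and 3 between TET2-S97E clones (Cebpa, Cebpb and Fabp4, which the filter had left out). With at least 10 counts in every library calls fell to 204 at d0 and 277 at d8, and 0 members were called between TET2-S97E clones, as with upper-quartile factors (0), which called 1 member (Cebpa) in TET2-S97E against TET2-WT. DESeq2 called 1310 genes at d0, 1569 at d8, 2393 over time in AMPK-KO cells, 57 in the difference, 1936 in TET2-S97E, and 889 and 1354 between clones of TET2-WT and TET2-S97E, with 1 member at d8, 2 over time in WT, 1 in AMPK-KO cells, 2 in TET2-S97E and 2 between its clones (Cebpa and Fabp4). With only the d0 libraries 335 genes were called at d0. TET2-S97E against TET2-WT had 0 genes called with counts summed per clone, 166 in voom with clone as a random effect, 183 without TET2-WT clone 1 and 625 without TET2-WT clone 2, and 1 member (Cebpa, −1.17) without TET2-S97E clone 1, against −0.45 and no call without TET2-S97E clone 2. Cebpb in that comparison reversed to −0.13 (summed per clone), −0.12 (without TET2-WT clone 2) and −0.57 (without TET2-S97E clone 2). The causes were not tested.

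Replicate numbers were shared by all groups, and the labels do not say what they stand for. Deviations of equally numbered libraries correlated across genes at 0.119 to 0.324 in every pair of WT and AMPK-KO groups. In TET2 libraries the correlations ran from −0.0355 to 0.512. Whether a shared batch or day lies behind these values was not tested. With a replicate block, calls numbered 622 and 1445 between clones of TET2-WT and TET2-S97E, 2 members were called over time in WT (Cebpd and Pparg, the latter at −0.87, adjusted p = 0.0378) and 2 between TET2-S97E clones (Cebpa and Cebpd), and Cebpd at d0 reversed to 0.023.

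Leaving out 1 library moved the genes called to 17–613 at d0, 107–902 at d8, 0–2260 over time in WT, 0–1737 in AMPK-KO cells, 0–6 in the difference, 304–1092 in TET2-S97E, and 0–258 and 457–971 between clones of TET2-WT and TET2-S97E. The lowest came without AMPK-KO d0 replicate 1 (17), WT d8 replicate 2 (107), WT d0 replicate 2 or WT d8 replicate 2 (0), AMPK-KO d0 replicate 1 (0), TET2-WT clone 2 replicate 1 (304), TET2-WT clone 1 replicate 2 (0) and again the latter (457). Members called ranged over 0–2 in WT over time and between TET2-S97E clones, 0–1 in AMPK-KO cells over time and in TET2-S97E, and 0 elsewhere. Members whose direction turned were Cebpa (−0.11 to 1.94), Cebpd (−0.33 to 0.27) and Pdgfra (−0.37 to 0.59) at d0, Cebpb (−1.03 to 0.40) and Runx2 (−0.10 to 0.88) at d8, Cebpa (−0.19 to 1.84) and Runx2 (−0.58 to 0.31) over time in WT, Runx2 (−0.61 to 0.18) in AMPK-KO cells, Cebpa (−1.0001 to 0.99), Cebpb (−0.70 to 0.73), Runx2 (−0.54 to 0.44) and Pdgfra (−0.25 to 0.72) in the difference, Cebpb (−0.32 to 0.57) in TET2-S97E, and Cebpa (−0.030 to 0.25), Cebpb (−1.32 to 0.51) and Cebpd (−0.39 to 0.15) between TET2-WT clones. A group left with 1 library was assumed to vary like the others.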
